A study of Mus musculus with 9 samples.

Results

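All genes were compared here between 3 hearts that had gone through pressure overload while carrying an N-terminal piece of HDAC4 and 3 control hearts that had gone through neither. The comparison used 6 of the 9 arrays of the study, and the members are every gene that the array's table names by a single symbol, 20239 in all. The HDAC4-NT hearts came from mice given an adeno-associated virus that codes for amino acids 1 to 201 of histone deacetylase 4 (HDAC4), followed by transaortic constriction (TAC), a surgical narrowing of the aorta. The sham hearts came from mice given the same kind of virus coding for luciferase, an enzyme with no role in the heart, followed by a sham operation. All mice were male C57BL/6, received virus at 8 weeks of age, were operated on 4 weeks later and gave their hearts another 4 weeks later. Both viruses drove their cargo from an MLC promoter, a promoter of a myosin light chain gene, of an isoform that the labels do not name. Another group of 3 hearts, TAC with the luciferase virus, enters the filter and the estimate of spread, and its values are set beside those of the HDAC4-NT hearts, with a direct test where one is given. Between HDAC4-NT and sham hearts both the surgery and the virus cargo differ, and no group had sham surgery with HDAC4-NT, so the parts of surgery and of HDAC4-NT in each difference cannot be told apart. The comparison asks how far hearts that carry HDAC4-NT under pressure overload lie from unloaded hearts.

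When the aorta is narrowed, the left ventricle has to eject blood against a higher pressure. Its cardiomyocytes enlarge, turn on genes that are normally active in the fetal heart and turn down genes of fatty acid oxidation, while fibroblasts lay down collagen between them. HDAC4 is a class IIa histone deacetylase that binds the transcription factor MEF2 through its N-terminal region and represses MEF2 target genes. Kinases such as CaMKII phosphorylate HDAC4 and send it out of the nucleus, and proteolysis can release an N-terminal fragment that stays in the nucleus and keeps the MEF2 binding region.

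RNA of whole hearts was measured on Affymetrix arrays, 1 array per heart, and levels are log2 values, so that a difference of 1 is a change of 2-fold. Of the 20239 genes, 12597 passed a filter on low values (above a log2 level of 5.66 in at least 3 of the 9 arrays) and were tested, and 7642 were not. Across the 12597 genes tested, any 2 sham arrays correlated at 0.9921 to 0.9924 and any 2 HDAC4-NT arrays at 0.9944 to 0.996. A sham and an HDAC4-NT array correlated at 0.9722 to 0.9789. The 10 cardiomyocyte markers were all tested, with a summed log2 level of 16.59 to 16.68 in sham and 16.57 to 16.58 in HDAC4-NT hearts. The hearts were taken whole, and the mean level of 4 atrial genes varied within groups, at 6.43, 7.49 and 6.45 in sham and 5.94, 6.85 and 6.94 in HDAC4-NT hearts. Array number limits the precision here: the median standard error of a log2 difference was 0.07. The labels give 3 animals per group, so p-values measure the spread between these animals. The first number of the sample code was 12 in sham, 3 or 4 in HDAC4-NT and 8 or 9 in TAC-luciferase hearts. What this number marks is not known here, and it cannot be told apart from the group.

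The HDAC4-NT hearts differed from sham hearts across many genes, mostly by small steps. By limma with Benjamini-Hochberg adjustment over all genes tested, 2872 of 12597 genes (22.8%) had an adjusted p under 0.05. Of these, 1326 (10.5% of those tested) were higher and 1546 (12.3%) were lower in HDAC4-NT hearts. The median size of a called difference was 0.37 on the log2 scale, and 2262 of the 2872 called genes (78.8%) differed by less than 1.5-fold. Differences of at least 2-fold were more often rises: 119 genes (0.945%) were higher and 42 (0.333%) lower by that much. The 3 HDAC4-NT values and the 3 sham values did not overlap for 5006 genes (39.7%), of which 2299 (18.3%) were higher and 2707 (21.5%) lower. Without HDAC4-NT heart 1, the number of lower genes was 1024. With arrays scaled by cyclic loess, 1457 genes were higher and 1347 lower, so the small excess of falls over rises turned with the scaling.

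**Figure D1:**
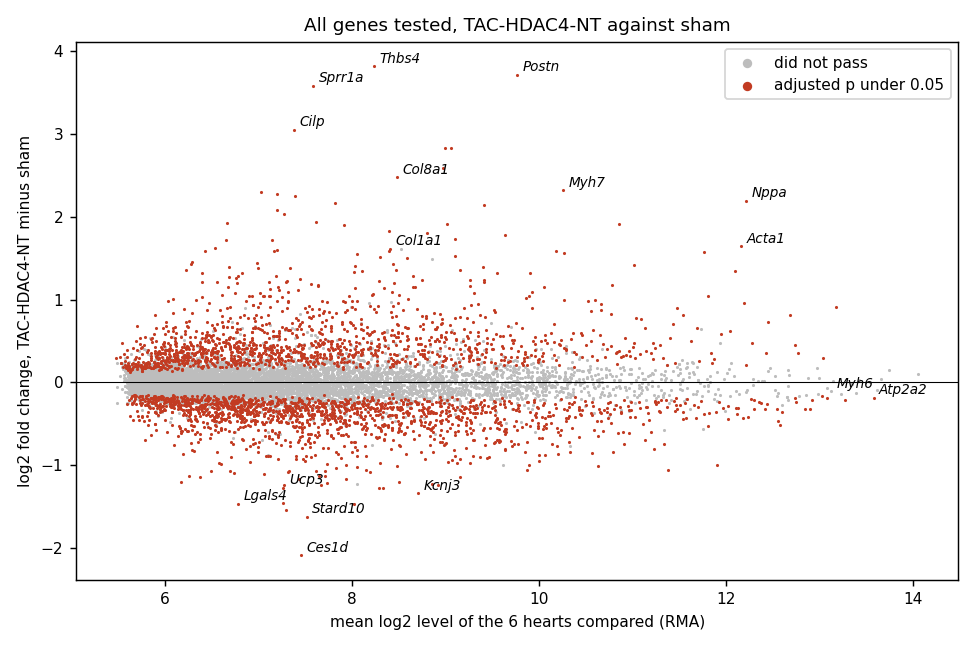
Each point is 1 of the 12597 genes tested, placed by its mean log2 level over the 6 hearts (x axis) and its log2 difference, HDAC4-NT minus sham (y axis); red points passed an adjusted p of 0.05. The largest rises (Thbs4 at 3.82, Postn at 3.72) reach farther from 0 than the largest fall (Ces1d at -2.09).

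The gene with the largest called rise was Thbs4, which encodes the secreted glycoprotein thrombospondin 4. It lay at 6.26, 6.33 and 6.38 in the 3 sham hearts and at 9.89, 10.01 and 10.55 in the 3 HDAC4-NT hearts. The difference was 3.82 (SE 0.16), a 14.15-fold rise with an adjusted p of 2.18e-06. All HDAC4-NT hearts were far above all sham hearts, and the gap was many times the spread within either group. Postn, the gene of periostin and a product of activated fibroblasts, went from 7.97, 7.86 and 7.89 to 11.73, 11.36 and 11.78, a 13.16-fold rise (log2 difference 3.72, SE 0.12, adjusted p 4.66e-07). Sprr1a, a small proline-rich protein that cardiomyocytes make under stress, went from 5.62, 5.84 and 5.93 to 9.15, 9.19 and 9.81, a 12.02-fold rise (3.59, SE 0.37, adjusted p 0.000209). Sprr1a had the widest error of the leading 3 genes, and still the lowest HDAC4-NT heart was above the highest sham heart.

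Behind these came Cilp, a cartilage matrix protein also made by cardiac fibroblasts, at 8.28-fold. The microfibril-associated genes Mfap5 and Mfap4 rose 7.16-fold and 6.04-fold, and Serpina3n, a secreted protease inhibitor, 7.14-fold. Sham heart 3 had the highest sham level of Mfap5 (8.15 against 7.44 and 7.35) and of Serpina3n (8.42 against 7.05 and 7.29), below all HDAC4-NT hearts in both cases. Col8a1, a short-chain collagen, rose from 7.12, 7.32 and 7.27 to 9.72 in each of the 3 HDAC4-NT hearts, a 5.58-fold rise. Timp1, an inhibitor of matrix metalloproteinases, rose 4.94-fold, and Nmrk2, a kinase that makes NAD+ from nicotinamide riboside, 4.87-fold. Of these 15 genes Nmrk2 varied most among the HDAC4-NT hearts, at 8.34, 7.71 and 8.97, all above the sham hearts at 6.08, 5.92 and 6.18. Tgfb2, a growth factor of the TGF-β family, rose 4.79-fold, Svep1, an extracellular adhesion protein, 4.48-fold, and Fstl1, a secreted glycoprotein that binds TGF-β family members, 4.42-fold. The 15 largest rises were completed by Myh7 and Nppa, which are described with the fetal genes.

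The largest falls were smaller than the largest rises. Predicted gene models were left out of the 15 falls described, and 1 of them, A530016L24Rik at -1.55 (adjusted p 4.98e-06), would have come after Stard10. Ces1d, a carboxylesterase that hydrolyses lipid esters, fell from 8.74, 8.60 and 8.16 in sham to 6.09, 6.80 and 6.36 in HDAC4-NT hearts, a level 4.25-fold lower (log2 difference -2.09, SE 0.25, adjusted p 0.000458). Stard10, a lipid transfer protein, was 3.08-fold lower, and Lgals4, a galectin, 2.76-fold lower with little spread, at 7.67, 7.45 and 7.42 in sham and 6.07, 6.04 and 6.03 in HDAC4-NT hearts. Pla2g5, a secreted phospholipase A2, was 2.76-fold lower. After these and Snord14e came Kcnj3 (2.53-fold lower), a potassium channel subunit, and Rpl3l (2.43-fold lower), the ribosomal protein found in striated muscle in place of its relative Rpl3. Ucp3, a mitochondrial carrier that follows fatty acid use, was 2.42-fold lower, and its sham hearts were spread, at 8.05, 8.34 and 7.32 against 6.78, 6.87 and 6.24.

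The remaining genes among these 15 falls had adjusted p-values from 1.72e-05 to 0.0243. Asb15, a muscle protein that joins ubiquitin ligases, was 2.37-fold lower and Tmod4, a tropomodulin that caps thin filaments, 2.32-fold lower. Ogdhl, a relative of a citric acid cycle enzyme, was 2.33-fold lower, and Dglucy, an enzyme of D-glutamate breakdown, 2.37-fold lower. Penk, the precursor of enkephalin peptides, was 2.31-fold lower, and at 5.54, 5.57 and 5.59 all 3 HDAC4-NT hearts were below the level that the filter asked for. Cmss1 was 2.35-fold lower and Lrg1, a secreted leucine-rich glycoprotein, 2.41-fold lower. The small nucleolar RNA Snord14e was 2.74-fold lower on average, but its sham hearts ranged from 7.24 to 8.51. Its adjusted p of 0.0243 rose to as much as 0.087 when a single heart was left out, and the call was lost without sham heart 2, sham heart 3, HDAC4-NT heart 1 or HDAC4-NT heart 2. It was also lost with no filter or a trended and robust prior (up to 0.0614).

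**Figure D2:**
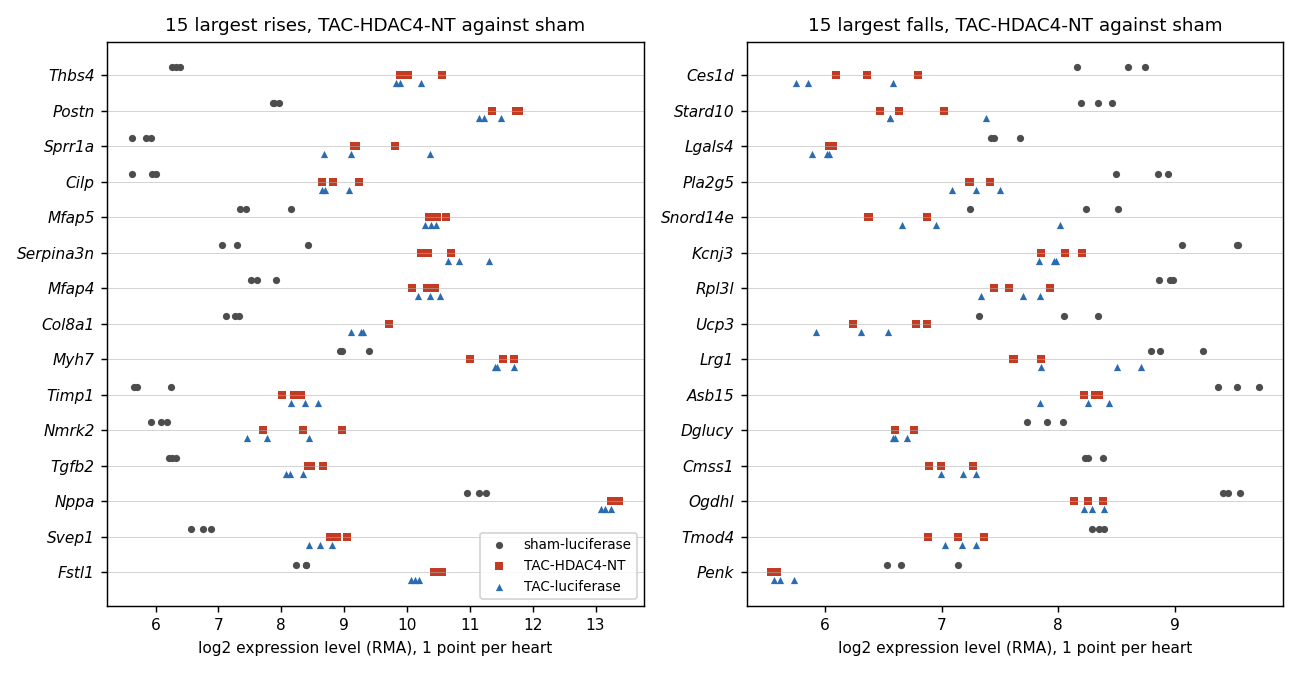
Log2 level in each heart (x axis) of the 15 genes with the largest called rises (left) and the 15 with the largest called falls (right), predicted gene models left out, with sham as grey circles, HDAC4-NT as red squares and TAC-luciferase as blue triangles. For all 30 genes the red squares and the grey circles do not overlap, as the genes were chosen to show, and the blue triangles mostly lie near the red squares.

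The genes were next read by lists of shared role. The counts of each list are to be read beside the shares over all genes tested, 10.5% higher and 12.3% lower. Where a list had no called gene in one direction, it also had none at an unadjusted p under 0.05, except for the immediate early genes (2 lower) and the cytokines (1 lower).

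Genes of the fetal and hypertrophy programme were largely higher in the HDAC4-NT hearts. All 18 listed genes were tested: 13 rose, 1 fell and 4 did not pass, with a median difference of 0.98 against -0.01 over all genes tested. Nppa, which encodes atrial natriuretic peptide, went from 10.95, 11.15 and 11.25 to 13.33, 13.24 and 13.38, a 4.59-fold rise (2.20, SE 0.08, adjusted p 8.8e-07). Nppb, which encodes brain natriuretic peptide, went from 11.15, 11.19 and 11.52 to 12.13, 12.36 and 12.5, a 2.06-fold rise (1.04, SE 0.12, adjusted p 0.000368). Both peptides are released by stretched myocytes and promote salt excretion. Myh7, the β-myosin heavy chain of the fetal mouse ventricle, went from 8.93, 8.96 and 9.39 to 11.53, 11.01 and 11.71, a 5.0-fold rise (2.32, SE 0.18, adjusted p 5.43e-05). Its adult counterpart Myh6 overlapped between the groups, at 13.09, 13.28 and 13.17 in sham and 13.03, 13.12 and 13.08 in HDAC4-NT hearts, a difference of -0.10 (95% interval -0.25 to 0.04, adjusted p 0.296). Acta1, the skeletal muscle α-actin that the fetal heart also uses, rose from 10.79, 11.52 and 11.73 to 12.93, 13.08 and 12.96, or 3.13-fold. The 3 sham hearts differed from each other in Acta1 by close to 1 log2 unit, and the HDAC4-NT hearts by far less.

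Other genes of this list also rose. Xirp2, an actin-binding protein of the intercalated disc, rose 2.99-fold (1.58, SE 0.07), Fhl1, a LIM-domain protein of the sarcomere, 2.96-fold (1.57, SE 0.06) and Enah, an actin regulator, 2.5-fold (1.32, SE 0.08). Ankrd1, a stretch-responsive repressor and titin partner, rose from 12.5, 12.96 and 12.72 to 13.64 in each HDAC4-NT heart. The sorted values of all arrays are identical, so these equal values mean an equal rank on each array. Uchl1, a deubiquitinase, rose by 1.08 (SE 0.14), and Rcan1, an inhibitor of calcineurin and itself a calcineurin target, by 0.82 (SE 0.14). The gene that fell was Myh7b, a myosin heavy chain related to Myh7, from 7.69, 7.53 and 7.64 to 6.78, 7.11 and 6.73. The 4 that did not pass were Acta2 at 0.00, Tnni1 at -0.03, Fhl2 at -0.10 and Csrp3 at 0.17.

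**Figure D3:**
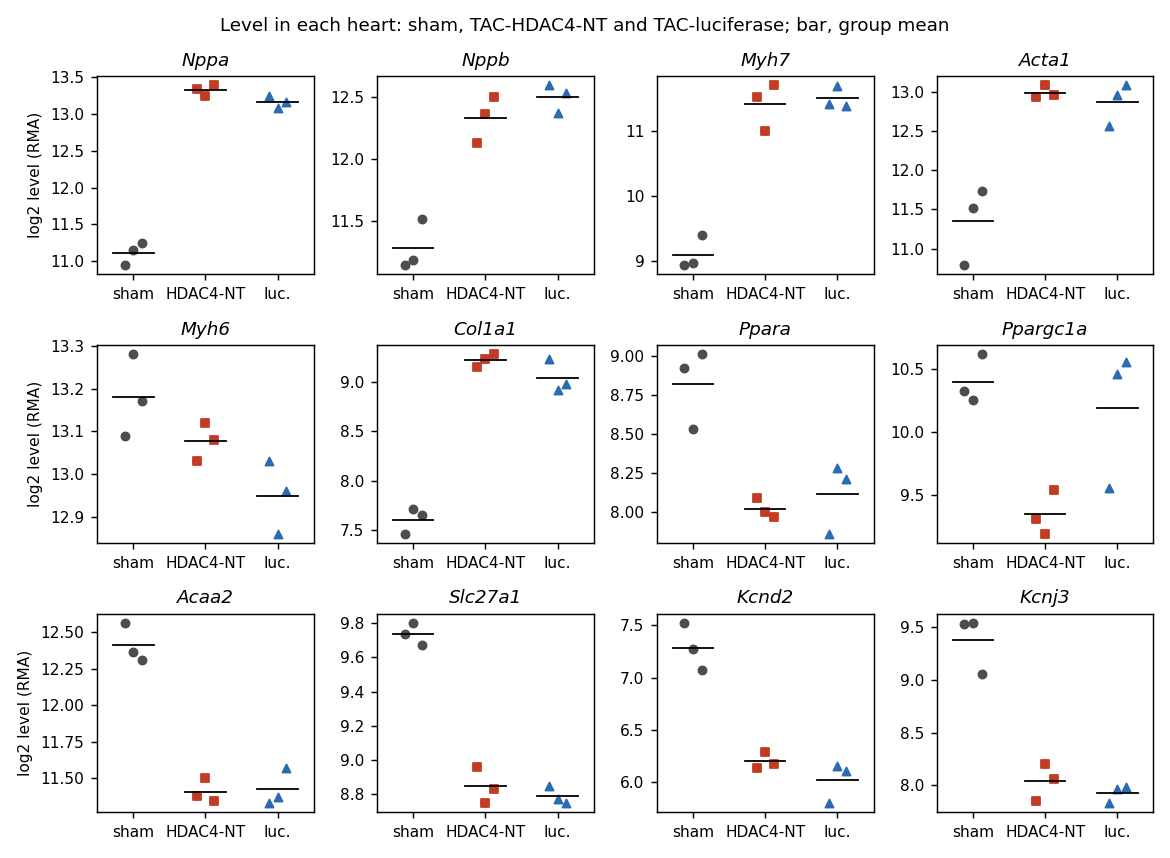
Log2 level in each heart (y axis, with a scale of its own in each panel that does not start at 0) for 12 genes, with a bar at each group mean, for sham, HDAC4-NT and TAC-luciferase hearts. Nppa, Nppb, Myh7, Acta1 and Col1a1 are higher in all HDAC4-NT hearts than in any sham heart, Myh6 overlaps, and Ppara, Ppargc1a, Acaa2, Slc27a1, Kcnd2 and Kcnj3 are lower.

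Promoters of 4 genes of this list that rose are shown because each carries a motif of a factor tied to load or to HDAC4. Each is the 250 bases before the RefSeq gene start on GRCm38.p6, written in the direction of the gene, with motif matches in capitals.
Acta1 (chr8:123894776-123895025, minus strand): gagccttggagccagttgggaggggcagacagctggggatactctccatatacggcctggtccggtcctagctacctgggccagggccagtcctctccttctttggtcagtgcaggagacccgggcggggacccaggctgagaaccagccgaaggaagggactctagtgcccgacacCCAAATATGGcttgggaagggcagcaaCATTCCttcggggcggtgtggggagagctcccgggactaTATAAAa
Nppb (chr4:147985650-147985899, plus strand): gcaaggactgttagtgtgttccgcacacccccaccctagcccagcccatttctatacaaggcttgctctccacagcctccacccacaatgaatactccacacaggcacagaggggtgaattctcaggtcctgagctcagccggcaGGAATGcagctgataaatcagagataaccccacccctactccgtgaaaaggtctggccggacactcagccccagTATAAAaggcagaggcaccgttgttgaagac
Xirp2 (chr2:67445752-67446001, plus strand): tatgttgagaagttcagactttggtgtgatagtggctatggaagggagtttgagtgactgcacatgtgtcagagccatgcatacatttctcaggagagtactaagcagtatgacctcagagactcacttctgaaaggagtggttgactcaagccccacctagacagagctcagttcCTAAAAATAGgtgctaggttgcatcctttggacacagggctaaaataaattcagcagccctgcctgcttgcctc
Ankrd1 (chr19:36119845-36120094, minus strand): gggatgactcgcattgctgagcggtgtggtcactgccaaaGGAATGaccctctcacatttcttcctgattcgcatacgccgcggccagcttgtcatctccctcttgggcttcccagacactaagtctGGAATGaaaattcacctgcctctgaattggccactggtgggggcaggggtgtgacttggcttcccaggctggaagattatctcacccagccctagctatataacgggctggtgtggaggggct
In Acta1 the capitals mark a CArG box (the site of serum response factor) 73 bases before the start, a CATTCC (the core read by TEAD factors) at 46 and a TATAAA at 7. In Nppb they mark CATTCC on the other strand, read as GGAATG, at 105 and TATAAA at 31. In Xirp2 they mark a MEF2 site at 74, and in Ankrd1 CATTCC on the other strand at 210 and 123.

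The motifs were searched on both strands in the same 250 bases of all 32851 promoters of the RefSeq table. A MEF2 site was found in 2.92% of all promoters and in 2 of the 17 fetal and hypertrophy genes with a promoter there, Xirp2 and Fhl2. A CArG box was found in 1.47% of all and in 3 of the 17, namely Acta1, Fhl1 and Fhl2. CATTCC was found in 12.64% of all and in 6 of the 17, and TATAAA in 12.37% of all and in 6 of the 17. Fhl2 thus holds a MEF2 site and a CArG box without having passed the test, while Xirp2, Acta1 and Fhl1 rose. The share of all is counted per promoter, whereas a list gene counts if any of its promoters matched. The lists of fatty acid, respiratory chain and channel genes described below had no MEF2 site or CArG box. CATTCC was in 5 of 25, 4 of 32 and 2 of 16 of them, and TATAAA in 0, 2 and 0. TCAAGGTCA, searched too, was in 0.39% of all promoters, 1 of the 17 and 1 of the 16 channel genes, and in neither other list. A match is a run of letters and not a measured binding site.

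Of 21 genes of the adult sarcomere tested, 3 rose (14.3%, against 10.5% of all genes tested) and 1 fell (4.76%, against 12.3%), with a median difference of 0.05. Des, the intermediate filament desmin that ties Z-discs together, went from 12.59, 12.61 and 12.57 to 12.95, 12.93 and 12.98 (0.36, SE 0.04, adjusted p 0.000394). Tcap, the titin cap, rose by 0.70 (SE 0.17) and Mybpc3, cardiac myosin-binding protein C, by 0.35 (SE 0.09). Myl3, the ventricular essential light chain, fell by 0.21 on the log2 scale (SE 0.05). Among the 4, Des passed whichever of the 9 arrays was left out. Myl3 lost it without HDAC4-NT heart 1 or 3 (adjusted p up to 0.0624), Mybpc3 without the same hearts (up to 0.0727), and Tcap without sham heart 2, sham heart 3 or HDAC4-NT heart 1 (up to 0.0677).

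Many genes of the extracellular matrix rose. Of 20 collagen genes tested, 14 rose and none fell at an adjusted p of 0.05, with a median of 0.70. Col1a1, the main chain of fibrillar collagen I, went from 7.46, 7.71 and 7.65 to 9.15, 9.23 and 9.28, a 3.07-fold rise (1.62, SE 0.09, adjusted p 1.06e-05). Its partner chain Col1a2 rose 2.69-fold and Col3a1, the chain of collagen III, 2.27-fold. Col15a1, a basement-membrane zone collagen, rose 2.52-fold. Basement-membrane collagen IV and microfibrillar collagen VI rose by less, with Col4a1 at 0.73 and Col6a1 at 0.85. In all these genes the groups did not overlap.

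Matricellular and elastic fibre genes held the 2 largest single rises, Thbs4 and Postn. Of 23 tested, 19 rose and 1 fell, with a median of 1.28. Beside Thbs4, Postn, Cilp, Mfap5 and Mfap4, Fn1 (fibronectin) rose 3.50-fold and Sparc, a collagen-binding secreted protein, from 11.71, 11.77 and 11.68 to 12.71, 12.64 and 12.68. Ccn2, the connective tissue growth factor, rose 3.78-fold, and Comp, a thrombospondin relative, by 1.44 (SE 0.13) from sham levels that were all below the limit of the filter. The gene that fell was Efemp1 (fibulin 3), from 6.37, 6.0 and 6.05 to 5.4, 5.52 and 5.41 (-0.70, SE 0.09). Only the sham hearts carried it past the filter, and it was not tested with a sham heart left out. Thbs1, thrombospondin 1, did not pass: its sham hearts lay at 7.01, 6.91 and 9.23 and overlapped the HDAC4-NT hearts at 8.92, 9.70 and 9.36 (1.61, SE 0.77, adjusted p 0.18). Sham heart 3 alone made that overlap.

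The proteins that decorate and tie collagen followed. Of 8 proteoglycan genes tested, 7 rose, with a median of 1.43. Among these small leucine-rich proteoglycans, which bind collagen fibrils, Bgn (biglycan) rose 2.55-fold, Fmod (fibromodulin) 3.30-fold, Lum (lumican) 2.94-fold and Aspn (asporin) 2.84-fold. Ogn (osteoglycin) overlapped between the groups, at 0.12 with an SE of 0.16. Of 14 collagen processing enzymes tested, 9 rose and none fell, with a median of 0.62. The lysyl oxidases that cross-link collagen included Lox at 2.57-fold, Loxl3 at 2.42-fold, Loxl1 at 2.34-fold and Loxl2 at 2.23-fold. Pcolce, which enhances the cleavage of procollagen, went from 8.79, 8.89 and 8.74 to 10.11, 9.99 and 9.96. Serpinh1, the collagen chaperone HSP47, was at 0.01 (SE 0.11) and did not pass.

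Enzymes that cut matrix and their inhibitors moved in both directions. Of 12 tested, 6 rose and 1 fell, with a median of 0.45. Mmp2 (gelatinase A) rose 2.49-fold, Mmp23 1.95-fold and Mmp14, the membrane-bound enzyme that activates Mmp2, 1.6-fold. Of their inhibitors, Timp1 rose from 5.66, 5.71 and 6.24 to 8.01, 8.31 and 8.20. Timp4, an inhibitor prominent in the heart, fell from 9.0, 9.06 and 9.67 to 7.83, 8.86 and 8.27 (-0.92, SE 0.25, adjusted p 0.0274), and did not pass without sham heart 3, HDAC4-NT heart 1 or HDAC4-NT heart 3.

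Markers of cells other than myocytes moved beside the matrix genes, and in whole-heart RNA more cells of a type and more RNA per cell cannot be told apart. Of 11 fibroblast markers tested, 7 rose and none fell, and their summed log2 level was 12.84 to 12.95 in sham and 13.42 to 13.51 in HDAC4-NT hearts. The list shares Col1a1, Dcn, Lum and Cthrc1 with the matrix lists. Among the others, Meox1, a homeobox factor of activated fibroblasts, went from 6.19, 6.18 and 6.41 to 8.15, 8.39 and 8.36 (2.04, SE 0.09). Serpinf1, a secreted serpin, went from 7.99, 8.15 and 8.05 to 9.98, 9.92 and 10.02 (1.91, SE 0.07). The fibroblast lineage genes Pdgfra and Tcf21 did not pass, at 0.24 (SE 0.15) and 0.25 (SE 0.14). The part of fibroblast number in the matrix rises was not tested.

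Of 14 macrophage and myeloid markers tested, 7 rose and none fell, with a median of 0.39 and summed levels of 11.34 to 11.47 in sham and 11.74 to 11.88 in HDAC4-NT hearts. Adgre1, an adhesion receptor of macrophages, rose from 6.21, 6.20 and 6.24 to 6.74, 6.74 and 6.82, and C1qa, a complement component made by macrophages, by 0.61 (SE 0.12). Of 9 smooth muscle and pericyte markers, 4 rose and 1 fell. Among the 4 is Des, which is also on the list of the adult sarcomere. Pdgfrb, the pericyte receptor for PDGF-B, went from 9.22, 9.04 and 9.11 to 9.79, 9.71 and 9.76 (0.63, SE 0.07). Cspg4, the proteoglycan NG2, rose 1.76-fold (0.82, SE 0.07), and Myh11, the smooth muscle myosin, was 0.24 lower (SE 0.07). Of 12 endothelial markers, 1 rose (Cdh5, by 0.31) and 1 fell (Flt1, by 0.28 on the log2 scale), 8.33% each way. Of all genes tested, 10.5% were higher and 12.3% lower. Of 10 cardiomyocyte markers, none rose and 2 (20%) fell, Myl3 and Atp2a2. Of 4 lymphocyte markers tested, 1 rose (Ptprc), as did 1 of 2 adipocyte markers (Fabp4). Of these calls, Ptprc, Fabp4, Myh11 and Flt1 each failed with some single hearts left out, as did Myl3 and Atp2a2. None of the 4 epicardial, 4 skeletal muscle and 3 erythroid markers tested passed in limma.

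Of 7 atrial markers, 3 rose, namely Nppa, Dkk3 and Pam. Nppa is also on the list of fetal and hypertrophy genes and Dkk3 on that of Wnt antagonists. Pam, the enzyme that amidates peptides, rose by 0.81. The other 4, Myl4, Myl7, Sln and Mybphl, had differences below 0. Myl7, the atrial regulatory light chain, had 6.26, 7.74 and 6.39 in sham and 5.45, 6.56 and 6.91 in HDAC4-NT hearts, which overlapped.

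**Figure D4:**
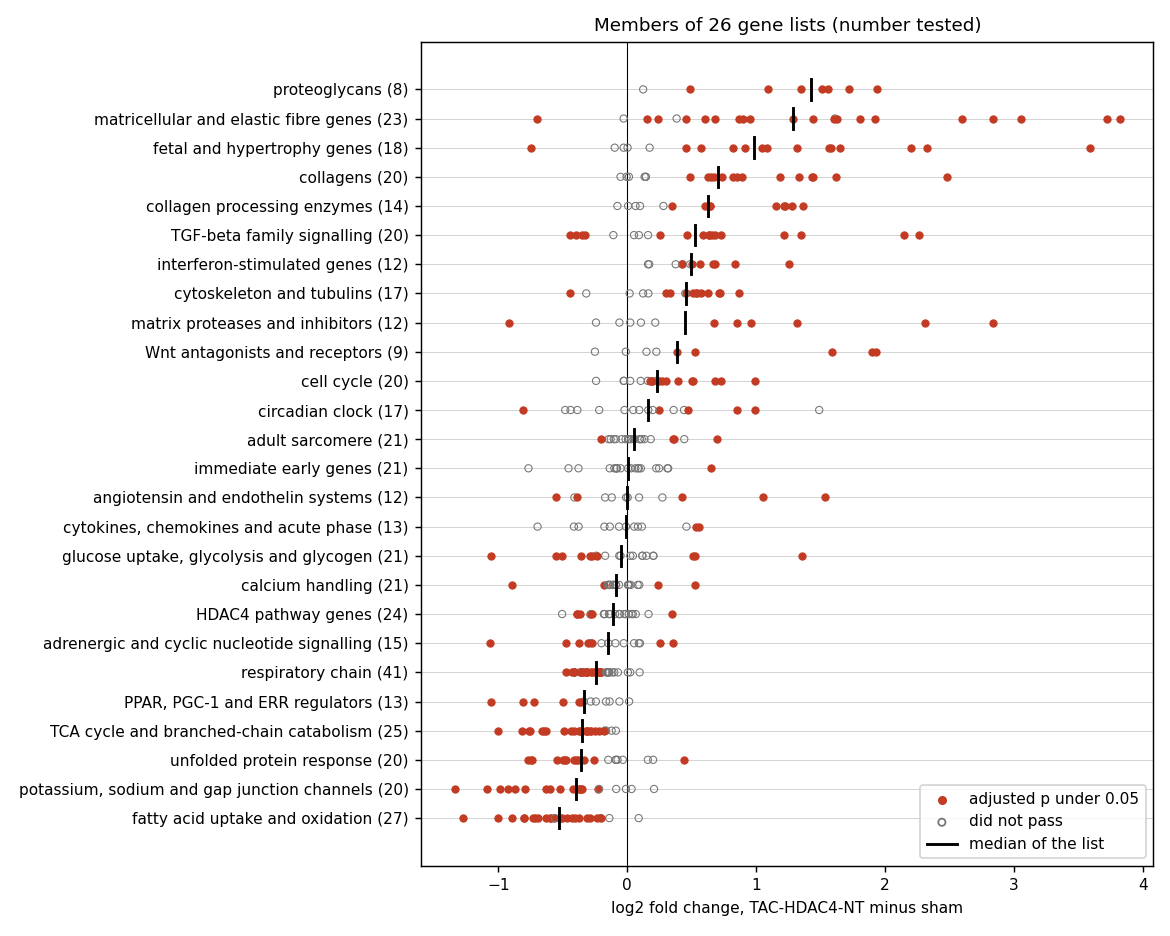
Log2 difference, HDAC4-NT minus sham (x axis), of each tested member of 26 gene lists, with the number tested in brackets; filled points passed an adjusted p of 0.05, open points did not, and the bar is the median. Proteoglycans (median 1.43) and matricellular genes (1.28) are at the top, and channels (-0.40) and fatty acid oxidation (-0.53) at the bottom.

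Signalling genes of the TGF-β family, which drives matrix synthesis in fibroblasts, moved in both directions. Of 20 tested, 12 rose and 4 fell, with a median of 0.53. Among the ligands, Tgfb2 rose from 6.32, 6.26 and 6.21 to 8.42, 8.47 and 8.67 (2.26, SE 0.09, adjusted p 8.8e-07), Tgfb3 rose 2.55-fold and Tgfb1 by 0.47. The receptors Tgfbr1 and Tgfbr2 rose by 0.65 and 0.63, while the co-receptor Tgfbr3 fell by 0.44 on the log2 scale (SE 0.10). Ltbp4, which holds latent TGF-β in the matrix, rose 1.55-fold. Smad3, the transcription factor downstream of the receptors, went from 7.07, 7.15 and 7.21 to 6.72, 6.94 and 6.72 (-0.35, SE 0.07). Bmp6 and Ltbp1 also fell, by 0.40 and 0.33 on the log2 scale. Without HDAC4-NT heart 3, 2 of the list fell.

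Of 9 Wnt antagonists and receptors tested, 5 rose and none fell, with a median of 0.38. The secreted antagonists were the largest: Frzb rose 3.80-fold, from 5.70, 5.61 and 5.78 to 7.54, 7.77 and 7.56, Sfrp1 3.74-fold and Sfrp2 3.00-fold. Of the Frizzled receptors, Fzd2 rose from 5.62, 5.6 and 5.55 to 6.22, 6.02 and 6.1, with all sham hearts below the limit of the filter. Fzd1, Fzd4, Fzd7 and Fzd8 did not pass. Of 12 angiotensin and endothelin genes, 3 rose (25%, against 10.5% of all genes tested) and 2 fell (16.7%, against 12.3%). Ace, the angiotensin-converting enzyme, went from 8.14, 8.36 and 8.5 to 9.98, 9.90 and 9.72, a 2.89-fold rise. Edn3 (endothelin 3) rose 2.07-fold and Npr3, the clearance receptor of natriuretic peptides, by 0.43. Agtr1a, the angiotensin II receptor, was 1.31-fold lower and Corin, the protease that activates the Nppa product, 1.47-fold lower.

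Of 17 cytoskeletal genes, 11 rose and 1 fell, with a median of 0.46. Tubb2a and Tubb5, β-tubulins of microtubules, rose 1.65-fold and 1.64-fold, Tmsb4x, the actin-sequestering thymosin β4, 1.45-fold, and Flnc, the muscle filamin, by 0.87 (SE 0.11). Tuba4a, an α-tubulin, was 1.36-fold lower, at 11.76, 11.69 and 11.85 in sham and 11.32, 11.34 and 11.31 in HDAC4-NT hearts.

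Fatty acid uptake and oxidation was lower almost throughout. Of 27 genes tested, 23 fell and none rose in limma, with a median of -0.53, against 12.3% lower and a median of -0.01 over all genes. Acaa2, the thiolase that ends each round of mitochondrial β-oxidation, went from 12.56, 12.36 and 12.31 to 11.38, 11.50 and 11.34, a level 2.00-fold lower (-1.0, SE 0.09, adjusted p 8.61e-05). Slc27a1, a fatty acid transporter, went from 9.74, 9.80 and 9.67 to 8.96, 8.75 and 8.83, 1.86-fold lower (-0.89, SE 0.07). For both, every HDAC4-NT heart was well below every sham heart. Mlycd, which degrades malonyl-CoA, was 1.66-fold lower and Acads, the short-chain acyl-CoA dehydrogenase, 1.44-fold lower. The entry step to the mitochondrion was lower too, with Cpt1b at -0.31 (SE 0.06) and Cpt2 at -0.60 (SE 0.09). Acadm, the medium-chain dehydrogenase, went from 12.74, 12.77 and 12.88 to 12.37, 12.29 and 12.32. The 4 genes that did not pass were Cd36 at -0.21, Cpt1a at -0.14, Acot13 at 0.09 and Pdk4 at -0.56 (SE 0.25).

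The nuclear receptors and coactivators that control these genes were lower in part. Of 13 tested, 6 fell and none rose in limma, with a median of -0.34. Ppara, the fatty acid receptor PPARα, went from 8.92, 8.53 and 9.01 to 8.09, 8.00 and 7.97, 1.75-fold lower (-0.81, SE 0.14, adjusted p 0.00283). Its partners Rxrg and Rxra were 1.65-fold and 1.29-fold lower. Ppargc1a, the coactivator PGC-1α, went from 10.33, 10.26 and 10.62 to 9.31, 9.19 and 9.54, 2.08-fold lower (-1.05, SE 0.23, adjusted p 0.0109). Ppard, the relative PPARδ, had almost no spread, at 7.88, 7.89 and 7.89 in sham and 7.5, 7.54 and 7.49 in HDAC4-NT hearts. Esrra, the estrogen-related receptor α, did not pass at -0.28.

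Genes of the respiratory chain were lower by small and even steps. Of 41 tested, 24 fell and none rose in limma, with a median of -0.25, and none of the 24 reached 1.5-fold. Ndufb10, of complex I, went from 8.69, 8.80 and 8.77 to 8.30, 8.47 and 8.24 (-0.42, SE 0.06, adjusted p 0.00169). Sdha, of complex II, was 1.33-fold lower, Uqcrfs1, of complex III, 1.28-fold lower and Cox8b, of complex IV, 1.24-fold lower. The largest fall of the list was Ndufa1 at -0.48 (SE 0.11), and Atp5b, of the ATP synthase, was at 0.10.

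Of 25 genes of the citric acid cycle and of branched-chain amino acid breakdown, 22 fell and none rose in limma, with a median of -0.35. The larger falls were on the branched-chain side. Bckdhb, a subunit of the branched-chain ketoacid dehydrogenase, went from 9.16, 8.78 and 9.01 to 7.91, 7.94 and 8.09, 2.01-fold lower (-1.0, SE 0.10, adjusted p 0.000151). The other subunits of that complex, Bckdha and Dbt, were 1.69-fold and 1.68-fold lower, and Mccc2, of leucine breakdown, 1.77-fold lower. In Dbt the HDAC4-NT hearts were almost equal, at 9.06, 9.05 and 9.05, against 9.86, 9.81 and 9.75 in sham. In the citric acid cycle proper, Fh1 was at -0.41 and Cs, citrate synthase, at -0.12, which did not pass.

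Glucose genes had no common direction. Of 21 tested, 3 rose (14.3%, against 10.5% of all genes tested) and 7 fell (33.3%, against 12.3%), with a median of -0.05. Slc2a1, the basal glucose transporter GLUT1, went from 8.71, 8.57 and 8.65 to 9.16, 9.22 and 9.13 (0.52, SE 0.11, adjusted p 0.00678). Slc2a4, the insulin-responsive transporter GLUT4, went the other way, from 11.52, 11.26 and 11.32 to 10.82, 10.87 and 10.89 (-0.51, SE 0.08, adjusted p 0.00226). Tbc1d4, which controls the movement of GLUT4 to the membrane, was 2.08-fold lower. Of the phosphofructokinases, the platelet form Pfkp rose 2.56-fold, from 7.68, 7.84 and 7.86 to 9.10, 9.17 and 9.18, and the muscle form Pfkm was 1.28-fold lower. Hexokinase 1 (Hk1) rose by 0.51 (SE 0.10), and Ldha, lactate dehydrogenase A, did not pass at 0.15.

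Of 21 calcium handling genes tested, 2 rose (9.52%, against 10.5% of all genes tested) and 2 fell (9.52%, against 12.3%), with a median of -0.09. Slc8a1, the sodium-calcium exchanger, rose 1.44-fold (0.53, SE 0.08, adjusted p 0.00173), and Hrc, a calcium-binding protein of the sarcoplasmic reticulum, was 1.85-fold lower (-0.89, SE 0.15, adjusted p 0.00264). Atp2a2, the SERCA2 calcium pump, had 13.68, 13.59 and 13.75 in sham and 13.51, 13.45 and 13.51 in HDAC4-NT hearts (-0.18, SE 0.05, adjusted p 0.0377). Leaving out a single heart ended that call for 7 of the 9 hearts (adjusted p up to 0.118). It also ended with the replicate number as a block, the stricter filter, only the 6 arrays or cyclic loess (up to 0.164). Casq2, calsequestrin 2, rose 1.18-fold and lost the call without HDAC4-NT heart 1 or 3 (adjusted p up to 0.0755). Ryr2, the ryanodine receptor, was at -0.14 and Pln, phospholamban, at -0.09, and neither passed.

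Ion channel genes fell together. Of 20 potassium, sodium and gap junction channel genes tested, 15 fell and none rose in limma, with a median of -0.40. Kcnj3, a subunit of the acetylcholine-gated potassium channel, went from 9.53, 9.54 and 9.06 to 7.85, 8.20 and 8.06 (-1.34, SE 0.13, adjusted p 0.000178). Its partner subunit Kcnj5 was at -0.79 (SE 0.13). Kcnd2, a pore subunit of the transient outward current, went from 7.52, 7.27 and 7.07 to 6.13, 6.29 and 6.17, 2.13-fold lower (-1.09, SE 0.12). Kcnip2, the auxiliary subunit of the same current, was 1.99-fold lower and Kcnj2, of the inward rectifier, 1.90-fold lower. Kcnv2, a modifier of voltage-gated channels, fell from 6.29, 6.01 and 6.19 to 5.54, 5.51 and 5.55, and only its sham hearts were above the limit of the filter. Hcn2, a pacemaker channel, was 1.44-fold lower, and the sodium channel subunit Scn4b was at -0.87 (SE 0.14). Gja1 (connexin 43) did not pass at 0.21.

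Of 15 adrenergic and cyclic nucleotide genes, 2 rose (13.3%, against 10.5% of all genes tested) and 5 fell (33.3%, against 12.3%). Their median was -0.15. Adra1b, the α1B-adrenergic receptor, had the largest fall, from 7.97, 7.79 and 7.83 to 6.77, 6.88 and 6.74, 2.10-fold lower (-1.07, SE 0.07, adjusted p 2.05e-05). Adcy9, an adenylyl cyclase, was 1.23-fold lower. Prkar1a, a regulatory subunit of protein kinase A, rose 1.27-fold and Pde9a, a phosphodiesterase that breaks down cGMP, 1.2-fold. Without sham heart 2, HDAC4-NT heart 2 or HDAC4-NT heart 3, 3 of the list fell.

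The Hdac4 probe set had 7.08, 7.12 and 7.19 in sham and 7.04, 6.95 and 6.88 in HDAC4-NT hearts (-0.18, SE 0.06, adjusted p 0.0815). The position of the probes within the gene is not known here, and the value does not check whether the fragment was expressed. Of 24 genes linked to HDAC4, 1 rose (4.17%, against 10.5% of all genes tested) and 5 fell (20.8%, against 12.3%), with a median of -0.11. Hdac5, another class IIa deacetylase, went from 7.47, 7.5 and 7.47 to 7.09, 7.10 and 7.08 (-0.39, SE 0.04, adjusted p 0.000324). Of the MEF2 factors, Mef2a was 1.22-fold lower and Mef2c 1.27-fold higher. Without HDAC4-NT heart 2 or 3, 3 of the list fell. Both MEF2 calls were lost when single hearts were left out, Mef2a without any 1 of the HDAC4-NT hearts (adjusted p up to 0.0773) and Mef2c without sham heart 1 or 3 or HDAC4-NT heart 1 or 3 (up to 0.0934).

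Other members of that list belong to the hexosamine route and to lipolysis. Oga, which removes O-GlcNAc from proteins, was 1.29-fold lower and Pnpla2, adipose triglyceride lipase, 1.31-fold lower. Abhd5, the lipase coactivator whose protein cuts HDAC4, did not pass at -0.18. Nr4a1, an orphan receptor and MEF2 target, overlapped fully, at 6.64, 7.55 and 6.98 in sham and 6.68, 7.26 and 7.2 in HDAC4-NT hearts. Its difference of -0.01 had a 95% interval of -1.55 to 1.52 in the fit over all arrays. That fit could not tell a change of 2-fold in either direction from none. Its estimate of spread took in the TAC-luciferase hearts, where the standard deviation of Nr4a1 was 1.70. The standard deviation was 0.46 in sham and 0.32 in HDAC4-NT hearts, so much of the width came from the TAC-luciferase hearts. An interval from the sham and HDAC4-NT hearts alone is not given here. Gfpt2, the first enzyme of the hexosamine route, had 7.07, 6.95 and 7.33 in sham and 6.61, 7.28 and 6.62 in HDAC4-NT hearts (-0.28, SE 0.29, adjusted p 0.568).

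The gene of the heart-specific microRNA miR-208a, which lies within Myh6 and is known to promote Myh7 expression under load, was also measured. Its mature strands are shown with the seed, bases 2 to 8, in capitals (RefSeq, GRCm38.p6, minus strand).
mmu-miR-208a-3p (chr14:54949072-54949093): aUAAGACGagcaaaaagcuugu
mmu-miR-208a-5p (chr14:54949107-54949128): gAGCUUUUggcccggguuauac
The probe set of Mir208a had 6.18, 5.81 and 6.38 in sham and 5.69, 5.77 and 5.75 in HDAC4-NT hearts (-0.39, SE 0.12, adjusted p 0.0431). The groups did not overlap, and leaving out a single heart ended the call for 7 of the 9 hearts (adjusted p up to 0.126). It also ended with no filter, cyclic loess or only the 6 arrays (up to 0.0845). The value is of the probe set of the gene, and the mature strands were not measured.

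Of 21 immediate early genes tested, 1 rose and none fell in limma, with a median of 0.01 and differences on both sides of 0. Without TAC-luciferase heart 1, 2 fell, and without TAC-luciferase heart 3, 2 rose and 1 fell. With only the 6 arrays compared 3 rose and 1 fell, with array weights 1 fell, and with the replicate number as a block 2 fell. Ier3, an early response gene, rose 1.57-fold, from 7.01, 7.10 and 7.16 to 7.74, 7.64 and 7.85. Atf3, a stress transcription factor, overlapped between groups, at 6.15, 6.06 and 6.41 in sham and 5.87, 5.93 and 6.41 in HDAC4-NT hearts (-0.14, SE 0.23). Dusp1, a phosphatase of MAP kinases, was lower in every HDAC4-NT heart, at 9.90, 9.83 and 10.13 against 10.61, 10.77 and 10.77. It did not pass (-0.77, SE 0.27, adjusted p 0.0766). These SEs are of the fit over all 9 arrays, so the spread of the TAC-luciferase hearts enters them. A gene that did not pass in that fit is therefore not shown to be unchanged between sham and HDAC4-NT hearts. Cdkn1a, the cell cycle inhibitor p21, had sham hearts spread from 8.33 to 10.23 around HDAC4-NT hearts at 8.86, 9.15 and 9.09.

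Of 17 clock genes tested, 4 rose (23.5%, against 10.5% of all genes tested) and 1 fell (5.88%, against 12.3%), with a median of 0.16. The labels do not state the time of day at which hearts were taken. Arntl (BMAL1), which activates clock output, went from 7.01, 7.40 and 7.41 to 6.22, 6.56 and 6.63 (-0.81, SE 0.19, adjusted p 0.0137). The repressors Bhlhe41 and Bhlhe40 rose 1.98-fold and 1.80-fold, and Ciart, another repressor, 1.38-fold. The Ciart call was lost without sham heart 1, sham heart 2 or HDAC4-NT heart 1 (adjusted p up to 0.103) and with no filter on low values (0.0664). Dbp, a clock output gene that peaks opposite to Arntl, did not overlap between groups. It lay at 8.68, 7.99 and 7.66 in sham and 10.10, 9.23 and 9.47 in HDAC4-NT hearts, and just missed the threshold (1.49, SE 0.48, adjusted p 0.0525). Dbp passed in 8 of the alternative fits, and its adjusted p rose to as much as 0.171 with a single heart left out. Its standard deviation was 1.05 in TAC-luciferase hearts, which enter the SE, against 0.52 in sham and 0.45 in HDAC4-NT hearts. Without sham heart 2 or HDAC4-NT heart 1, 2 of the list rose, and without TAC-luciferase heart 1 or 3, 3 or 2 fell. The Arntl call was lost without sham heart 3 or HDAC4-NT heart 1 (adjusted p up to 0.0562).

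Genes of the unfolded protein response were lower. Of 20 tested, 12 fell and 1 rose, with a median of -0.36. Hspa5, the main chaperone of the endoplasmic reticulum, went from 11.13, 11.28 and 11.43 to 10.42, 10.51 and 10.68, 1.67-fold lower (-0.74, SE 0.09, adjusted p 0.000654). Herpud1, of endoplasmic reticulum-associated degradation, was 1.68-fold lower, Sdf2l1, a luminal chaperone partner, 1.71-fold lower and Dnajc3, a co-chaperone, 1.26-fold lower. The gene that rose was Edem1, which directs misfolded glycoproteins to degradation, by 0.44 (SE 0.09). Without sham heart 3, and also without HDAC4-NT heart 1, the number that fell was 7.

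Of 20 cell cycle genes, 12 rose and none fell in limma, with a median of 0.23. The D-type cyclins Ccnd2 and Ccnd1, which start the cycle, rose 1.99-fold and 1.65-fold. Mcm6, of the replicative helicase, rose 1.31-fold, and Mki67, the proliferation marker, went from 5.65, 5.61 and 5.70 to 6.30, 5.86 and 6.32 (0.50, SE 0.15, adjusted p 0.0406). HDAC4-NT heart 2 had the lowest Mki67 of its group. The count was sensitive to single hearts and ranged from 3 to 14 over leaving out each of the 9 arrays. It was 7 without sham heart 1 or 2, 4 without sham heart 3, 3 without HDAC4-NT heart 1 and 5 without HDAC4-NT heart 3.

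Of 12 interferon-stimulated genes, 7 rose and none fell in limma, with a median of 0.49. Ifit3, an antiviral effector, went from 6.83, 6.82 and 6.82 to 8.14, 7.90 and 8.19, a 2.39-fold rise (1.25, SE 0.25, adjusted p 0.00641). Oasl2, of the oligoadenylate synthetase family, rose 1.79-fold, Ifitm3, a membrane restriction factor, 1.58-fold and Ifit1 1.48-fold. Without HDAC4-NT heart 1, the number that rose was 4. Among 13 genes of cytokines, chemokines and the acute phase, 2 rose (15.4%, against 10.5% of all genes tested) and none fell in limma, the chemokines Cxcl16 and Cx3cl1 at 1.47-fold and 1.45-fold.

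TAC-luciferase hearts had the same surgery without HDAC4-NT, and their differences from sham are set beside those of the HDAC4-NT hearts. Both comparisons share the 3 sham hearts, so their likeness is no independent result. Against sham, 26.1% of the genes tested passed in TAC-luciferase hearts and 22.8% in HDAC4-NT hearts, and 32 genes (0.254%) passed when the TAC groups were compared directly. For 20 of the 26 lists the medians lay within 0.15 of each other. The widest gaps were in immediate early genes, at 0.01 in HDAC4-NT and 0.70 in TAC-luciferase hearts, in matrix proteases and inhibitors, at 0.45 and 0.93, and in cytokines, at -0.01 and 0.22. Also outside 0.15 were the fetal and hypertrophy genes, with medians of 0.98 and 1.17, and the clock genes, at 0.16 and -0.02. The PPAR and PGC-1 regulators, the last list outside it, had medians of -0.34 and -0.18. Ppargc1a was at -1.05 in HDAC4-NT and -0.21 in TAC-luciferase hearts, and the direct difference of -0.85 did not pass (adjusted p 0.142). Lrg1 was at -1.27 and -0.61, and its direct difference of -0.66 did not pass either (adjusted p 0.187).

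For 10 genes, HDAC4-NT hearts passed the test in the same direction against sham and against TAC-luciferase hearts, 8 of them higher. Col8a1 was highest in HDAC4-NT hearts, 2.48 above sham and 0.49 above TAC-luciferase hearts, where it lay at 9.27, 9.30 and 9.11. The other 7 higher genes had small differences from sham. Nav3, a microtubule-binding protein, had 6.16, 6.16 and 6.10 in sham, 6.72, 6.55 and 6.59 in HDAC4-NT and 6.15, 6.17 and 6.16 in TAC-luciferase hearts, so that only the HDAC4-NT group stood apart. Pxdn, a peroxidase that cross-links collagen IV, was 0.50 above sham and 0.65 above TAC-luciferase hearts. Cd200, an immunoregulatory surface protein, was 0.51 above sham and 1.00 above TAC-luciferase hearts.

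The rest of these genes were Arhgap32 (0.38 above sham), Olfr558, an odorant receptor (0.46), Septin4 (0.20) and Lmo4, a LIM-only transcriptional cofactor (0.19). The lower pair were Dusp16, a phosphatase of JNK and p38 (-0.33), and Hspbp1, a regulator of HSP70 (-0.24). Several of these calls against sham rested on single hearts. Without HDAC4-NT heart 1, Olfr558 (adjusted p 0.0567) and Dusp16 (0.0503) no longer passed. Cd200 and Lmo4 each lost the call for 6 of the 9 hearts left out singly (up to 0.126 and 0.0917) and Septin4 for 4 (up to 0.1). Cd200 also lost it with no filter (0.0811), Lmo4 with a trended and robust prior (0.0615) and Septin4 with the replicate number as a block (0.0539). Slc2a1 rose in both TAC groups, by 0.52 in HDAC4-NT and 1.52 in TAC-luciferase hearts, and Atf3 was at -0.14 and 2.39.

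**Figure D5:**
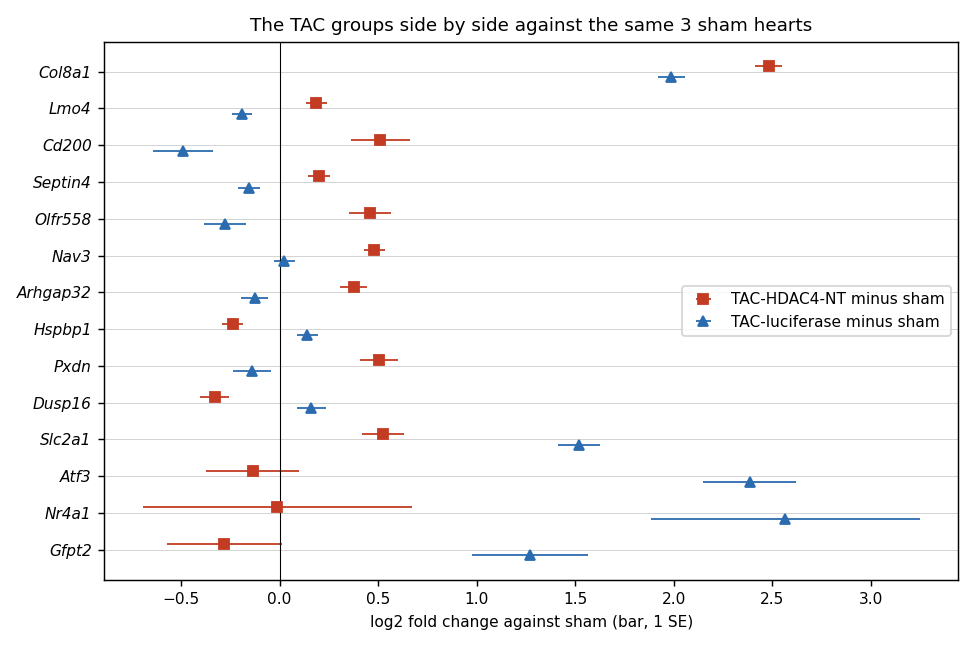
Log2 difference from the same 3 sham hearts (x axis; bars are 1 standard error) of 14 genes in HDAC4-NT hearts (red squares) and TAC-luciferase hearts (blue triangles). The upper 10 genes passed the test against sham and against TAC-luciferase hearts in the same direction; Slc2a1, Atf3, Nr4a1 and Gfpt2 are farther from sham in TAC-luciferase hearts, with a wide error for Nr4a1.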

How the data were processed

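RMA log2 expression values of 9 Affymetrix arrays were deposited by the authors, per the submitters' processing notes, and the sorted values of all arrays are identical, as after quantile normalization. The labels name neither the probe set definitions nor a genome build. The table holds 21225 probe sets. Symbols came from the platform annotation, and 20239 probe sets have 1 symbol and 986 none here. Genes above the 40th percentile of all values in at least 3 arrays were tested with 1 limma 3.58.1 fit (R 4.3.3) over the 9 arrays, which share the estimate of spread (6 residual and 3.23 prior degrees of freedom), with Benjamini-Hochberg adjustment over all 12597 genes. The filter let in 59 called genes with no sham array above its limit, 33 with no HDAC4-NT array above it and 5 through HDAC4-NT arrays alone, which had to differ. The fit was tested on simulated data. Alternatives were another filter or none, cyclic loess, array weights, a trended prior, only the 6 arrays, blocks and leaving out each array. Named genes were the 15 largest non-overlapping calls each way (predicted gene models such as symbols ending in Rik left out), up to 4 of each list with the smallest p, those called against both groups, and a fixed few, and other list members and Ankrd1, Ccn2, Cdkn1a, Cspg4, Dbp, Kcnip2, Kcnj2, Lox, Mef2c, Mir208a, Pdgfrb, Ppargc1a and Thbs1 were chosen after their values were seen. Members and lists were chosen with earlier results of these data known. Hearts were not treated as paired by title number. Deviations of same-numbered sham and HDAC4-NT hearts correlated at 0.01, 0.13 and 0.002, and those of other pairs at -0.224 to 0.216. With 3 hearts per group, centred on the group mean, these values cannot settle whether the hearts were paired. Figures used matplotlib 3.10.9 (Python 3.11.15).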

Additional observations from a re-analysis of the deposited data

Results flagged for a closer look

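Of the 32 genes that passed a direct limma test of the TAC groups, so that their differences from sham were unequal, 12 are among the genes named here. The differences, HDAC4-NT minus TAC-luciferase on the log2 scale, were 0.49 for Col8a1, 0.38 for Lmo4, 1.00 for Cd200, 0.36 for Septin4, 0.74 for Olfr558, 0.46 for Nav3, 0.50 for Arhgap32, 0.65 for Pxdn, -0.38 for Hspbp1 and -0.49 for Dusp16. Slc2a1 differed by -0.99 (adjusted p 0.0128) and Atf3 by -2.52 (adjusted p 0.00667). In both of these the HDAC4-NT hearts lay nearer to sham, and the TAC-luciferase hearts held the larger difference.

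Probe sets without a gene symbol stayed outside the comparison by gene. Of 567 of them that passed the filter, 128 (22.6%) passed the threshold in HDAC4-NT against sham, 60 higher and 68 lower, a share close to the 22.8% of named genes.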

How the results depend on the processing

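Leaving out each heart in turn gave 1922 to 3154 called genes, 898 to 1519 of them higher and 1024 to 1635 lower, and the lower count left the range of 1.5 times the full count only without HDAC4-NT heart 1 (1024). A minimum of 1.5-fold left 610 genes, 357 higher and 253 lower, by construction. With the replicate number as a block, 2667 genes passed, 1260 higher and 1407 lower. Of the 139 genes named by the rule or fixed, 134 were called. With each of the 9 arrays left out, 119 lost the call in no fit that tested them. Kcnv2 is among the 119, though it was not tested with a sham heart left out. Nr4a1, near 0, turned to 0.0092 under cyclic loess, 0.0028 with the sample code as a random block and 0.1729 without HDAC4-NT heart 1. Leaving out each heart in turn gave -0.2215 to 0.2356 for Nr4a1, highest without sham heart 2, and -0.7161 to 0.2370 for Cdkn1a, above 0 only without sham heart 3. The causes were not tested. Signal near the filter's limit restricts what can be said of dim genes such as Penk.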
